A study of Mus musculus with 10 samples.

Results

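Microglia are the resident macrophages of the brain parenchyma, and 39 genes that they, the macrophages of the brain's borders and the complement system are known for were followed in the cortex of mice with a Chd8 knock-in allele. The genes were chosen by symbol for these known roles, and 38 of the 39 were found among the 13661 genes of the authors' deposited table. The missing member is C3, the central complement component, and it was not analysed here. CHD8 is a chromatin remodeller whose gene is linked to autism, and the study's title presents the mice as a model of its duplication. The series compares 5 wild-type (WT) libraries with 5 Chd8 knock-in (KI) libraries, each of poly(A) RNA from the cortex of a male mouse aged 8 weeks. No other allele or treatment is named for either group. The labels do not state the strain, how the knock-in allele was built, which promoter drives it or whether animals were littermates.

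As background, microglia survive on signals through the receptor CSF1R, sense ATP breakdown products and the neuronal chemokine CX3CL1 through P2Y and CX3CR1 receptors, and hold their identity through transcription factors such as PU.1, IRF8 and SALL1. Classical complement begins when C1q, a protein built from the products of C1qa, C1qb and C1qc, tags a surface. Cleaved C4 and C3 are then deposited there, and complement receptor 3, made of the products of Itgam and Itgb2, lets microglia bind and engulf the tagged material. Synapses are pruned in this way during development.

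The values are the authors' own results of 1 comparison, made with DESeq2, a package that models counts. For each gene the authors' deposited table holds a mean normalised count over the KI and WT libraries together, a log2 fold change with its standard error (SE), and a Wald test p. Values of single libraries were not analysed here, so depth is unknown and no spread between libraries could be computed directly. The header does not say which group is the numerator. KI over WT was assumed, since Chd8 then stood 1.40-fold higher in KI (95% interval 1.22 to 1.61, adjusted p = 0.0044 from DESeq2 in the authors' deposited table). Every direction below rests on that reading. The labels carry no animal numbers or preparation dates, so the p-values measure the spread between these libraries, which may be partly technical.

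No microglial, macrophage or complement transcript was called different between KI and WT cortex. None of the 38 members passed an adjusted p of 0.05 (DESeq2, from the authors' deposited table), where 0.0732% of all 13660 tested genes did (0.00732% higher and 0.0659% lower in KI), and the adjusted p was 0.9999 for each member. The members' log2 fold changes ran from -0.24 for Cd74 to 0.29 for Inpp5d, with 17 below 0 and 21 above. Their median was 0.019, against 0.0025 over all tested genes, of which 48.4% were below 0. At an unadjusted p under 0.05 there were 3 members, Inpp5d, Siglech and Mertk, each higher in KI, which is 7.89% of the members against 3.22% of all tested genes (1.34% higher and 1.88% lower in KI). In bulk cortex, fewer cells of a type and less RNA per cell cannot be told apart, so each value stands for both together.

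**Figure D1:**
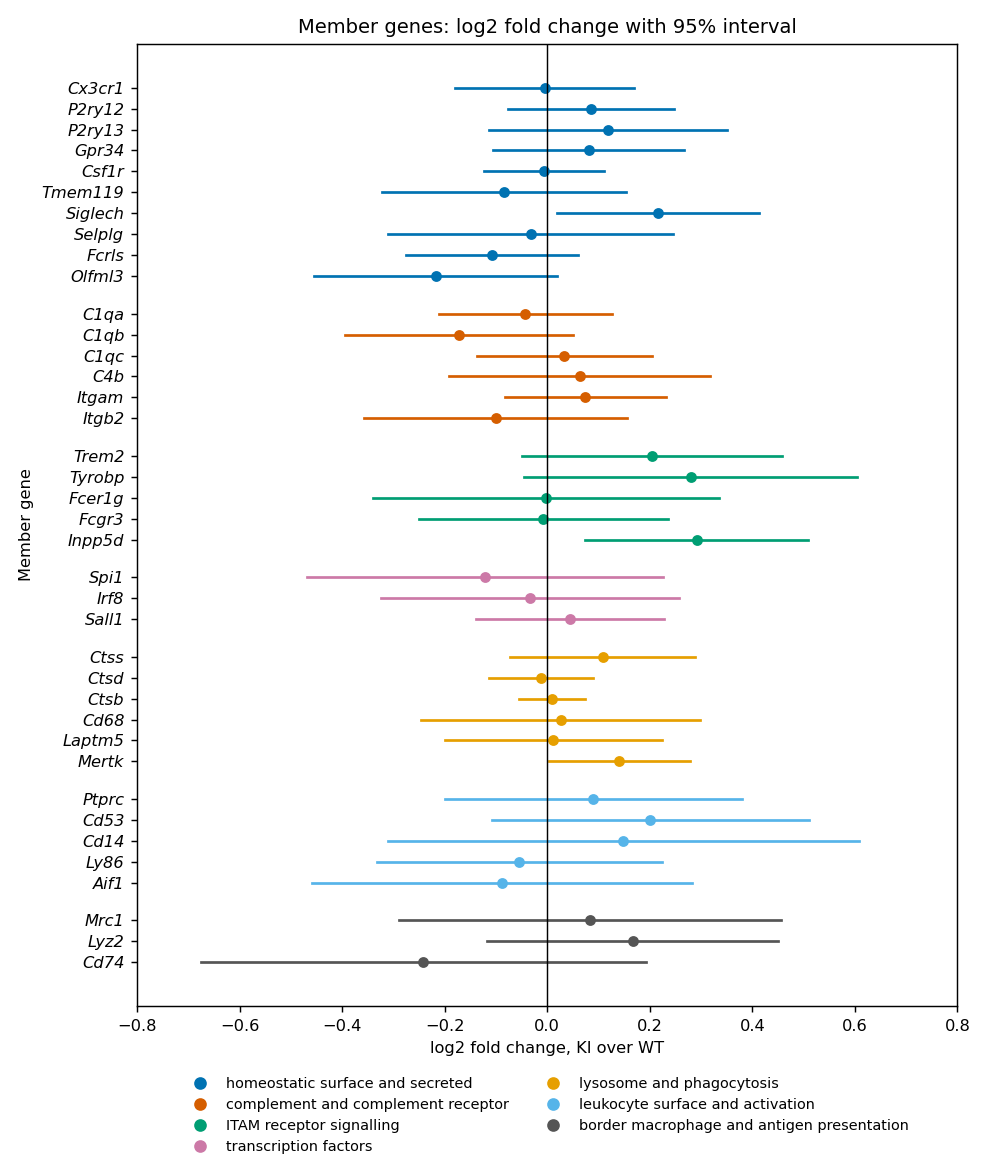
Log2 fold change of the 38 member genes, KI over WT, from the authors' deposited table (horizontal axis), by role (vertical axis); points are estimates and lines are 95% normal intervals from the deposited standard errors. The points lie between -0.24 and 0.29, and the lines of Inpp5d, Siglech and Mertk do not cross 0.

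The intervals say how large a change the table leaves room for. Log2 changes beyond ±0.5 fell outside the 95% interval for 33 of the 38 members (86.8%, against 88.5% of all tested genes). The 5 whose interval reached further were Inpp5d, Tyrobp, Cd53, Cd14 and Cd74. Given the number of genes tested, a gene would have been called here at a p of about 4e-05, or a Wald score of 4.11. At the members' standard errors that corresponds to an estimated log2 change of 0.13 for the protease gene Ctsb, the lowest. It was highest, 0.96, for the lipopolysaccharide co-receptor gene Cd14, with a median of 0.50. These are sizes that an estimate must reach. True changes smaller than this could have been present without being called, and so could some as large or larger.

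Transcription factors set which of the other genes a microglial cell can express. Spi1 encodes PU.1, the master regulator of myeloid genes, and lies on chromosome 2 from 91082374 to 91115759 (RefSeq, GRCm38). Its mean normalised count was 85.6 in the authors' deposited table, and its log2 fold change was -0.12 (SE 0.18, 95% interval -0.47 to 0.23, unadjusted p = 0.491). Irf8, whose product partners PU.1, stood at -0.034 (SE 0.15) with a mean normalised count of 97.2, and Sall1, which keeps the microglial state and is also expressed by other brain cells, at 0.045 (SE 0.093) with 501, again in the authors' deposited table. None of the 3 factors was called, and the intervals of all 3 lay within ±0.5.

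PU.1 binds purine-rich sites around GGAA, so the 250 bases before the annotated start of each member were searched on both strands for 3 strings. These were GAGGAA, a longer string that reads AGGAAGT, and their union GAGGAAGT, which contains both others. Upstream sequence from RefSeq (GRCm38.p6) was matched for 26 of the 38 members. GAGGAA was found in 15 of the 26 (57.7%, against 25.9% of 27025 genes with such a sequence), AGGAAGT in 9 (34.6%, against 8.80%) and GAGGAAGT in 2, C1qc and Inpp5d (7.69%, against 2.79%). A match is a description of the letters and not a binding site. Shown here are the upstream sequences of 4 of the 9 genes with AGGAAGT, picked after their values were seen: both C1q genes for which a sequence was matched, the homeostatic receptor gene P2ry12 and Inpp5d, the member with the smallest p. Capitals mark AGGAAGT, or its reverse complement ACTTCCT where the string lies on the other strand. For C1qc the start used lies inside the annotated gene.
C1qb (chr4:136886201-136886450, minus strand): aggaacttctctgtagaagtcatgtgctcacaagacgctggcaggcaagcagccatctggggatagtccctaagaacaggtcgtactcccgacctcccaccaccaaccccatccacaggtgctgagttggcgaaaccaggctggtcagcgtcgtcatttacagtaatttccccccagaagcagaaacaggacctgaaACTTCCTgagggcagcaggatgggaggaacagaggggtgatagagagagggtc
C1qc (chr4:136892915-136893164, minus strand): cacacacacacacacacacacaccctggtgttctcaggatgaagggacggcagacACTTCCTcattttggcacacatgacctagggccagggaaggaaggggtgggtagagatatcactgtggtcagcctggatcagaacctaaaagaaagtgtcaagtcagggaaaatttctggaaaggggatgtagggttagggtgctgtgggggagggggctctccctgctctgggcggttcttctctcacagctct
P2ry12 (chr3:59262986-59263235, minus strand): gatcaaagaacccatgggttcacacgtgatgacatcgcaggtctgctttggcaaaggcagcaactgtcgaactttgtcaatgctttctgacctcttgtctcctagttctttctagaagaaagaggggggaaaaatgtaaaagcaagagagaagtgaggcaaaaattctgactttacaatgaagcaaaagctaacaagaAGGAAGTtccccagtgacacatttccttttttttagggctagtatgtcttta
Inpp5d (chr1:87620062-87620311, plus strand): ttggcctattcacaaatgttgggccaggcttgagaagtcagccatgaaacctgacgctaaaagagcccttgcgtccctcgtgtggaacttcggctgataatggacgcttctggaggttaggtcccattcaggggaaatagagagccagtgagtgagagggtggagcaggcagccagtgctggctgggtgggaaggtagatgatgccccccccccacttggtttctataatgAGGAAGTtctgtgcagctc

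The string began 53 bases before the start of C1qb, 195 before that of C1qc, 52 before that of P2ry12 and 19 before that of Inpp5d. The 9 members with AGGAAGT were C1qb, C1qc, Fcrls, Inpp5d, Lyz2, Mrc1, P2ry12, Ptprc and Sall1. In the authors' deposited table their median log2 fold change was 0.084, with 2 of the 9 below 0, and the median of the 17 matched members without it was 0.012. Over all tested genes with an upstream sequence, the medians were -0.0019 with AGGAAGT and 0.0016 without. For GAGGAA the members' medians were 0.075 with the string (15 members) and -0.0029 without (11). Over all tested genes they were 0.0020 and 0.0012. For GAGGAAGT the members' medians were 0.16 with the string (2 members) and 0.035 without (24). Over all tested genes these were 0.0065 and 0.0013. All these medians are descriptions, and the differences between them were not tested.

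Among the homeostatic surface and secreted genes, 6 of 10 were below 0 and 4 above, with a median log2 fold change of -0.0055. Csf1r, the receptor for the survival factors CSF1 and IL-34, was the best measured of the 10. It had a mean normalised count of 1942 in the authors' deposited table and a log2 fold change of -0.0062 (SE 0.060), so that its 95% interval ran from 0.918 to 1.08 of the WT level. Cx3cr1, the receptor for the neuronal chemokine CX3CL1, stood at -0.0048 (SE 0.089, mean normalised count 1074) there. Both were nearer to 0 than the other 8 genes of the group. The purinergic receptor genes P2ry12, which guides microglial processes toward injury, and P2ry13 are neighbours on chromosome 3 (59216271 to 59262985 and 59207892 to 59210882), and stood at 0.086 (SE 0.082) and 0.12 (SE 0.12) in the authors' deposited table. Both overlap the longer gene Med12l, at 0.056 (SE 0.13), and reads in the overlap cannot be told apart, because the labels do not state whether counting used strand. The lysophosphatidylserine receptor gene Gpr34 on the X chromosome, at 0.081 (SE 0.095) in the authors' deposited table, likewise overlaps Cask, at 0.11 (SE 0.056).

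Siglech and Olfml3 were the homeostatic genes farthest from 0, on opposite sides. Siglech encodes a sialic acid-binding receptor found on microglia and plasmacytoid dendritic cells, and lies on chromosome 7 from 55768154 to 55779448. The mean normalised counts implied by the authors' deposited table were 308 in WT and 358 in KI, a log2 fold change of 0.22 (SE 0.10, 95% interval 0.018 to 0.41, unadjusted p = 0.0323). Olfml3 encodes a secreted olfactomedin-like protein and lies on chromosome 3 from 103735394 to 103738001. It had implied means of 402 in WT and 345 in KI, a log2 fold change of -0.22 (SE 0.12, 95% interval -0.45 to 0.020, unadjusted p = 0.0722), from the authors' deposited table. Neither was called, and the 2 estimates were of similar size in opposite directions. Olfml3 was counted here among the members that other brain cells also express. The homeostatic genes not yet named were Fcrls, Tmem119 and Selplg. Fcrls, an Fc receptor-like gene, stood at -0.11 (SE 0.085) and Tmem119, the microglial membrane marker, at -0.085 (SE 0.12) in the authors' deposited table. Selplg, encoding the selectin ligand PSGL-1, stood at -0.033 (SE 0.14) there.

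Of the complement genes and the genes of complement receptor 3, 3 of 6 were below 0 and 3 above (median -0.0048), and none had an unadjusted p under 0.05. The C1q genes lie in a row on chromosome 4, within 18719 bases (136880126 to 136898844), and their products assemble into 1 protein. In the authors' deposited table C1qa had a mean normalised count of 796 and a log2 fold change of -0.043 (SE 0.086). C1qb had 355 and -0.17 (SE 0.11, unadjusted p = 0.127), and C1qc had 655 and 0.033 (SE 0.087). The 3 intervals overlap one another, and the highest limit among them was 0.20. C4b, which encodes the complement component C4 and is also made by astrocytes, stood at 0.063 (SE 0.13) with a mean normalised count of 409 in the authors' deposited table. Its close copy C4a was not among the genes analysed here, and the labels do not state how reads that fit both genes were counted. The receptor subunit genes Itgam (0.075, SE 0.080) and Itgb2 (-0.10, SE 0.13) lay on either side of 0 in the authors' deposited table.

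A further 31 complement genes and regulators were looked up, of which 23 were tested and 0 called, with 14 below 0 (median -0.016). An unadjusted p under 0.05 was given to 1 gene in each direction (8.70% of the 23, against 3.22% of all tested genes). Csmd3, which encodes a large neuronal membrane protein with complement control domains, stood at 0.26 (SE 0.092, unadjusted p = 0.0044) in the authors' deposited table. Serping1, which encodes the C1 inhibitor, stood at -0.31 (SE 0.14, unadjusted p = 0.0251) there. Vtn, encoding vitronectin, was at -0.11 (SE 0.069), and the most abundant of the 23, Clu, encoding clusterin, at -0.0083 (SE 0.066) in the authors' deposited table.

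The genes of immunoreceptor tyrosine-based activation motif (ITAM) signalling had a median of 0.20 over 5 genes, with 2 below 0 and 3 above. The adaptor TYROBP (DAP12) carries the signal of the lipid receptor TREM2, and SHIP1, the phosphatase encoded by Inpp5d, limits it. Inpp5d, on chromosome 1 from 87620312 to 87720510, had implied mean normalised counts of 289 in WT and 354 in KI in the authors' deposited table. That is a log2 fold change of 0.29 (SE 0.11, 95% interval 0.075 to 0.51), with an unadjusted p of 0.0085 that stood 103rd among 13660. It was the member with the smallest p and was not called. Tyrobp, on chromosome 7 from 30413782 to 30417582, had implied means of 132 in WT and 160 in KI (log2 fold change 0.28, SE 0.17, unadjusted p = 0.0916), and Trem2, on chromosome 17 from 48346401 to 48352276, of 232 and 267 (0.20, SE 0.13, unadjusted p = 0.115), both from the authors' deposited table. The estimates of these 3 genes were thus among the highest of the 38, while those of the Fc receptor genes of the same group were near 0. Fcer1g, the ITAM adaptor of Fc receptors, stood at -0.0029 (SE 0.17) and Fcgr3, a low-affinity IgG receptor, at -0.0076 (SE 0.12) in the authors' deposited table. Reads of Fcgr3 may be shared with its relative Fcgr2b, the inhibitory IgG receptor gene, which stood at -0.41 (SE 0.28) there. The difference between these genes was not tested, and their intervals overlap.

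The lysosomal and phagocytic genes held the tightest values, with 1 of 6 below 0 and a median of 0.019. Ctsb and Ctsd encode the cathepsins B and D, proteases that neurons and astrocytes also make in quantity. Ctsb had a mean normalised count of 12046 and a log2 fold change of 0.0090 (SE 0.033), and its interval ran from 0.962 to 1.05 of the WT level in the authors' deposited table. Ctsd had 7559 and -0.012 (SE 0.051). Ctsb overlaps the sterol synthesis gene Fdft1, which stood at -0.0094 (SE 0.065) there. Cathepsin S is the more myeloid of the 3 enzymes, and its gene Ctss stood at 0.11 (SE 0.092) with a mean normalised count of 999 in the authors' deposited table. Mertk, which encodes a receptor for phosphatidylserine-tagged debris on microglia and astrocytes, had implied means of 732 in WT and 807 in KI (0.14, SE 0.070, 95% interval 0.0026 to 0.28, unadjusted p = 0.0459) and was not called. The lysosomal membrane genes Cd68 (0.026, SE 0.14) and Laptm5 (0.012, SE 0.11) were near 0 in the authors' deposited table. Of 29 other lysosomal genes, all tested, 15 were below 0 (median -0.00031) and 0 were called. The 1 with an unadjusted p under 0.05 (3.45% of the 29, near the 3.22% of all tested genes) was Lipa, encoding lysosomal acid lipase. It stood at -0.20 (SE 0.090, unadjusted p = 0.0281) in the authors' deposited table. Scarb2 stood at 0.090 (SE 0.051), Gusb at 0.17 (SE 0.10) and the most abundant, the saposin precursor gene Psap, at -0.018 (SE 0.041) there.

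General leukocyte and activation genes were measured less precisely, since their counts were low. Ptprc, which encodes the pan-leukocyte antigen CD45, stood at 0.090 (SE 0.15, mean normalised count 77.9), and the tetraspanin gene Cd53 at 0.20 (SE 0.16, mean normalised count 136) in the authors' deposited table. Cd14 stood at 0.15 (SE 0.23), Ly86, which encodes a partner of a toll-like receptor homologue, at -0.054 (SE 0.14), and Aif1, which encodes the histological marker IBA1, at -0.088 (SE 0.19) there. Of these 5 genes 2 were below 0 and 0 had an unadjusted p under 0.05. Among 26 other genes of activated microglia, 14 were tested, 7 were below 0 (median -0.0091) and 0 had an unadjusted p under 0.05. Those named by rule were H2-D1, an MHC class I gene, at 0.098 (SE 0.096), Spp1, encoding osteopontin, at -0.14 (SE 0.14), B2m at 0.057 (SE 0.065) and Apoe, which astrocytes make in large amounts, at -0.045 (SE 0.078) in the authors' deposited table. The activation genes Itgax, Cst7, Clec7a, Il1b and Tnf were not among the genes analysed here, where mean normalised counts began at 24.4.

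The 3 genes that point to border macrophages and antigen presentation lay on both sides of 0. Mrc1, encoding the mannose receptor of perivascular and meningeal macrophages, stood at 0.084 (SE 0.19) and Lyz2, encoding lysozyme, at 0.17 (SE 0.15) in the authors' deposited table. The close copy Lyz1 was not among the genes analysed here. Cd74, the invariant chain of MHC class II, had implied means of 93.9 in WT and 79.4 in KI, a log2 fold change of -0.24 (SE 0.22, unadjusted p = 0.275) from the authors' deposited table, the lowest of the 38 and also among the least precise. Of 12 other border macrophage markers 4 were tested. These were F13a1 at -0.30 (SE 0.22), Cd163 at 0.18 (SE 0.20), Dab2 at -0.075 (SE 0.13) and Stab1 at -0.0072 (SE 0.14) in the authors' deposited table. Of 7 MHC class II genes 4 were tested, 1 below 0 (median 0.11), with H2-DMa at 0.13 (SE 0.11), H2-Ab1 at -0.23 (SE 0.26) and Ciita at 0.21 (SE 0.32) in the authors' deposited table. All of these genes but Dab2 and Stab1 had mean normalised counts under 200, and 0 were called.

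Most markers of the tissues at the brain's borders had estimates below 0, and 1 of them was called. All 16 meningeal fibroblast markers were below 0 (median -0.24, 1 called, 4 lower and 0 higher at an unadjusted p under 0.05). The called gene was Igf2, which fell by 0.29 on the log2 scale (SE 0.059, adjusted p = 0.0022 from DESeq2 in the authors' deposited table). The proteoglycan gene Fmod stood at -0.44 (SE 0.14) and the transporter gene Slc13a4 at -0.28 (SE 0.11) there. Of 13 tested choroid plexus markers 12 were below 0 (median -0.30, 0 called, 7 lower and 1 higher at an unadjusted p under 0.05), with Kl at -0.40 (SE 0.11), Tmem72 at 0.67 (SE 0.21), Enpp2 at -0.18 (SE 0.059) and Ttr at -0.12 (SE 0.096) in the authors' deposited table. Over all tested genes 48.4% were below 0 and 0.0659% were called lower. At an unadjusted p under 0.05, 1.88% were lower and 1.34% higher. Both lists were chosen with earlier results of these data known, so their counts are descriptions only. They are given because border macrophages live in those tissues. The part of those tissues in the values of Mrc1, Lyz2, Cd74 and Serping1 was not tested.

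**Figure D2:**
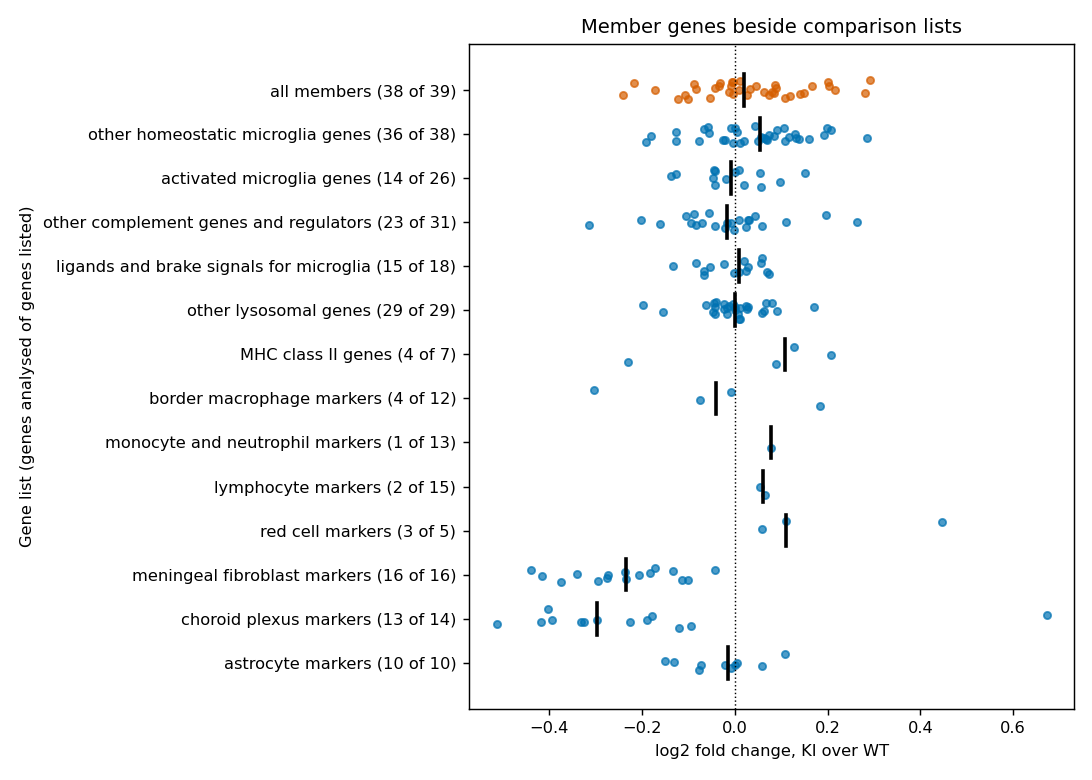
Log2 fold change, KI over WT, of single genes (points, horizontal axis) for the 38 members and for 13 comparison lists (vertical axis, with the number analysed of the number listed); black bars are list medians and the vertical scatter of points carries no value. The members' median is 0.019 and that of 36 other homeostatic microglia genes 0.053, while the meningeal and choroid plexus medians are -0.24 and -0.30.

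The label of the gene group was checked against other markers. Of 38 further homeostatic microglia genes 36 were tested, 13 below 0 and 23 above, with a median of 0.053 and 0 with an unadjusted p under 0.05. Named by rule in the authors' deposited table were Bhlhe41, a transcription factor gene, at 0.13 (SE 0.071), Lpcat2 at 0.16 (SE 0.10), Coro1a at 0.068 (SE 0.049), and Sparc, at -0.067 (SE 0.10), which endothelial cells and astrocytes also express. Markers of blood leukocytes were nearly all outside the genes analysed here. Of 13 monocyte and neutrophil markers 1 was tested, Csf3r at 0.077 (SE 0.15), and of 15 lymphocyte markers 2, Ighm at 0.054 (SE 0.084) and Cd4 at 0.066 (SE 0.14), in the authors' deposited table. Red cell genes stood at 0.11 (SE 0.16) for Hba-a1, 0.45 (SE 0.27) for Hba-a2 and 0.059 (SE 0.23) for Alas2 there, and none of the 3 was called. Astrocyte markers, relevant to C4b, Ctsb, Ctsd and Mertk, had 6 of 10 below 0 (median -0.014, 0 called). An unadjusted p under 0.05 was given to 1 of the 10 (10%, against 3.22% of all tested genes), Aldh1l1 at -0.13 (SE 0.062). Gjb6 stood at -0.15 (SE 0.096) and Slc1a2 at 0.11 (SE 0.065) in the authors' deposited table.

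Signals that other cells send to microglia were likewise uncalled. Of 18 such ligands, brake signals and their receptors 15 were tested, 7 below 0 (median 0.0092), and 0 had an unadjusted p under 0.05. Cx3cl1, the neuronal ligand of CX3CR1, had a mean normalised count of 16485 and stood at -0.023 (SE 0.044) in the authors' deposited table. Il34, the main neuronal ligand of CSF1R, was at -0.083 (SE 0.062), Gas6, a bridging ligand of MERTK, at -0.066 (SE 0.039) and Cd47, the do-not-eat-me signal, at -0.066 (SE 0.059) there. All 15 intervals lay within ±0.5.

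Levels of different genes were compared per kilobase of exon, KI and WT together. Ctsd (3554 normalised counts per kb) and Ctsb (2540) stood far above the rest, and both are expressed widely outside microglia. C1qa (765), Ctss (736), C1qc (545), Csf1r (397), P2ry12 (335) and C1qb (327) followed. The most abundant of the microglia-enriched transcripts in this cortex were thus complement C1q chains, a cathepsin and homeostatic receptors. The lowest were Irf8 (28.3), Mrc1 (18.4) and Ptprc (15.2), so that the range over the 38 members was 234-fold. The spread of these levels over libraries was not analysed here, and exon length depends on the annotation.

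**Figure D3:**
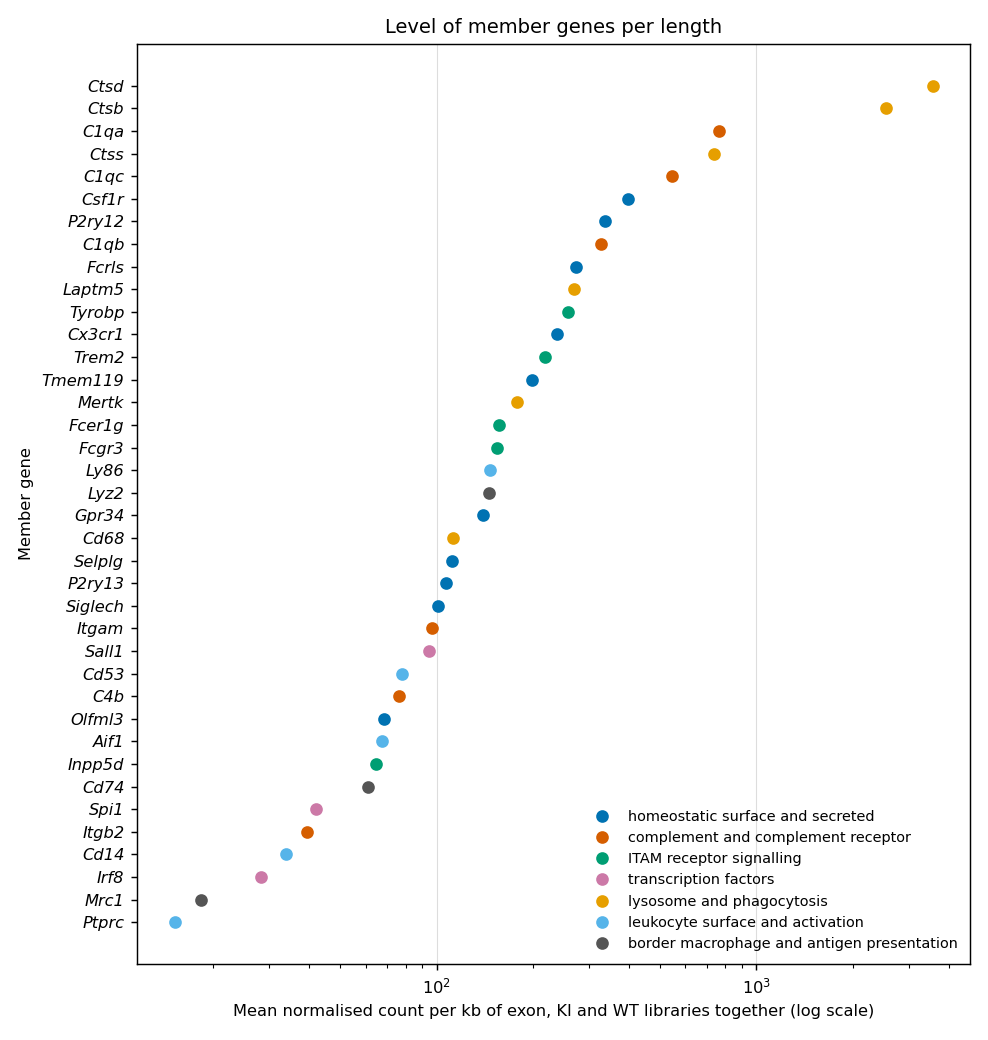
Mean normalised count per kilobase of exon (horizontal axis, log scale) of the 38 members in order of level (vertical axis), over the 10 libraries together, coloured by role. Ctsd (3554) and Ctsb (2540) lie apart from the rest, and Ptprc is lowest at 15.2.

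Standard errors of the members were set beside those of all genes. With 5 libraries a group, the deposited standard errors imply a spread per library (coefficient of variation, biological and counting error together) with a median of 13.3% over the members, from 3.59% for Ctsb to 25.7% for Cd14, against a median of 9.76% over all tested genes. Part of that gap goes with abundance, since the members' median mean normalised count was 307 against 549. Set against the trend of the standard error on abundance over all genes, 28 of 38 members lay above it (73.7%, against 47.7% of all tested genes), with a median ratio of 1.11 against 0.990 for all tested genes. C4b (1.41 times the trend), Laptm5 (1.40) and Tmem119 (1.36) lay farthest above and Ctsb (0.691) and Ptprc (0.809) farthest below. No test was made of this description.

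**Figure D4:**
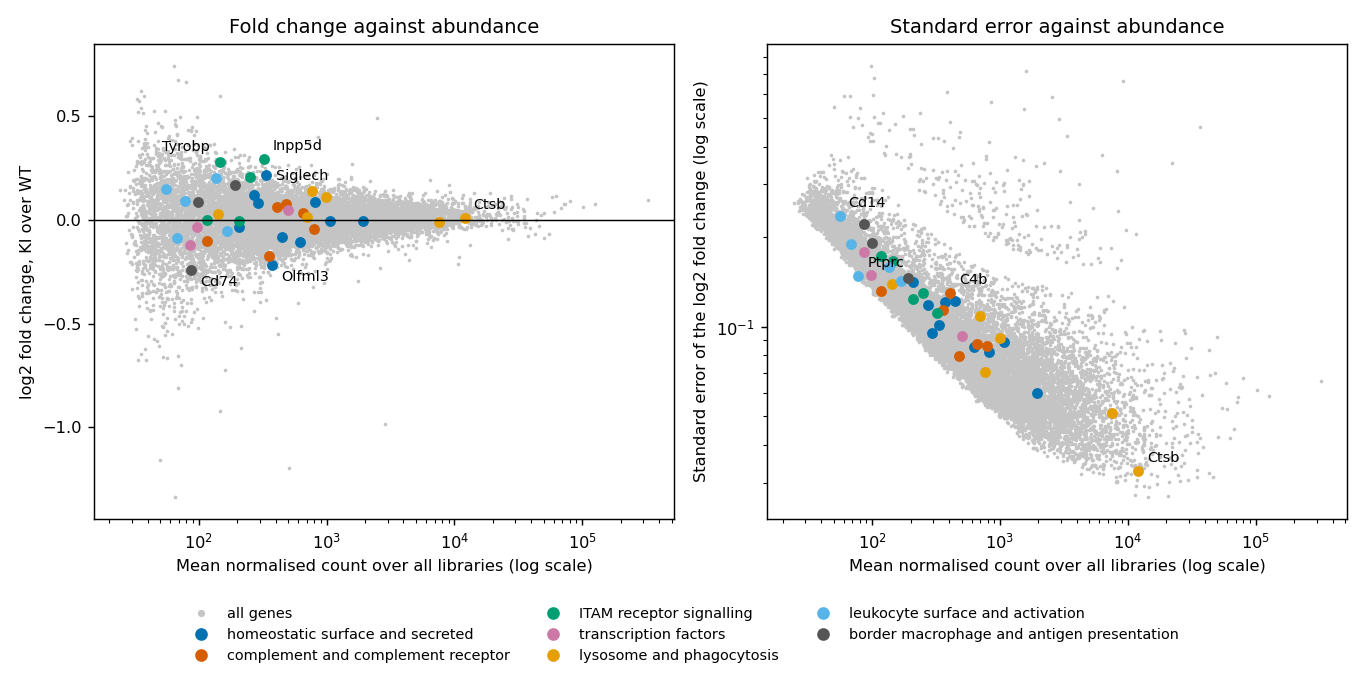
Left, log2 fold change (KI over WT) and right, its standard error (log scale), each against mean normalised count (log scale), for all genes of the authors' deposited table (grey) and the 38 members (coloured by role). The members lie inside the cloud of all genes in both panels, with standard errors that fall from 0.23 for Cd14 to 0.033 for Ctsb.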

How the data were processed

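Reads were trimmed with Trimmomatic 0.39, aligned with HISAT2 2.1.0, counted with featureCounts 2.0.0 and compared with DESeq2 1.26.0 on the build mm10, per the submitters' processing notes. The labels do not state settings, gene annotation, strand, filters or the design of the fit. Per the file headers, the authors' deposited table holds a mean normalised count (a signal value scaled by the authors), a log2 fold change with its standard error, a Wald score, and a p-value with its adjusted p-value. A count model was foreseen only if per-library counts were given, so the authors' deposited DESeq2 results were used.

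Symbols and coordinates came from RefSeq (GRCm38.p6), which named 13497 of 13661 gene numbers. Intervals are 95% normal intervals. Means implied for WT and KI solve the deposited mean and fold change for 5 libraries a group, taking size factors as equal and fold changes as unshrunken. The implied spread per library is the standard error converted to a coefficient of variation in the same way. Exon lengths are unions over the GENCODE M21 basic set. Trends were lowess fits (fraction 0.3, statsmodels 0.14.6). The calculations were tested on simulated data. All members are named, and of each comparison list the 3 genes with the smallest p and the most abundant one; for the other genes of a list counts and medians are given. The members and lists were chosen with earlier results of these data known.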

Additional observations from a re-analysis of the deposited data

How the results depend on the processing

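The number of members called stayed at 0 with p-values adjusted over the genes at or above 200 mean normalised counts. It was also 0 with thresholds of 0.1 and 0.01 and with a minimum log2 change of 0.5. The outcomes at those thresholds and that minimum were fixed by the adjusted p of 0.9999 that DESeq2 gave each member. The adjustment over fewer genes could hardly have called a member either. The smallest unadjusted member p from DESeq2 was 0.0085, for Inpp5d, 103rd among 13660. The median log2 fold change of the members ran from 0.0044 to 0.036 over 9 alternatives, against 0.019. Among the 9, a minimum mean normalised count of 50 removed no member. The lowest median came without the 4 members that overlap another tested gene, an alternative chosen after seeing the data. The highest came with the transcript length trend removed. At or above 200 mean normalised counts, 10 of the remaining 24 members were below 0, against 17 of 38, because fewer genes enter. The other alternatives gave 15 to 18 below 0. Without members that other brain cells also express, Mertk among them, 2 had an unadjusted p under 0.05 in place of 3.

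No paired analysis was possible because the authors' deposited table holds no columns of single libraries, and for the same reason no library was left out in turn and no other normalisation was run. Depth per library is unknown. At the members' median standard error, 0.12, an estimated log2 change would have needed to reach 0.50 to be called.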
